A study of Mus musculus with 14 samples.

Results

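Genes of fatty acid uptake and oxidation were followed in bulk RNA-seq of whole hearts from 14 female mice. The group was a list of 34 genes that covers delivery and uptake of fatty acids, activation and the carnitine shuttle, mitochondrial β-oxidation, electron transfer, acyl-CoA thioesterases and regulators of the pathway. All 34 were found among the 42396 genes listed in each of the 2 deposited count tables. All 34 also exceeded 1 CPM (counts scaled to the library total) in at least 1 library of each experiment, the filter applied before testing.

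Each animal carried a gene trap of Ndufs6, a subunit of respiratory complex I, which lowers its expression mainly in the heart and defines the FS6KD line. This line was kept on a mixed C57BL/6J and 129/Ola background. In the knockout experiment, hearts were taken at 12 weeks from 4 mice with intact Atf3 (Atf3+/+FS6KD) and from 4 without it (Atf3-/-FS6KD), and the knockout came from intercrossed founders in which CRISPR-Cas9 had deleted part of Atf3 in every tissue. Atf3 encodes a stress-induced transcription factor of the ATF/CREB family. In the adeno-associated virus (AAV) experiment, neonatal FS6KD mice had received MyoAAV2, a muscle-directed virus, with a short hairpin RNA against Atf3 (MyoAAV2-shAtf3) or a control (MyoAAV2-shCtrl), and 3 hearts per group had been collected 12 weeks later. The promoter of the hairpin is not given in the sources used here, and the FS6KD state of these mice is given by the series design and not by the genotype label.

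The heart takes most of its energy from long-chain fatty acids. They reach the cardiomyocyte as albumin-bound acids or after lipoprotein lipase has cut them from circulating triglyceride, enter through CD36 and transport proteins, and are bound by FABP3 in the cytosol. After activation to acyl-CoA they cross into mitochondria on carnitine, and repeated rounds of dehydrogenation, hydration, dehydrogenation and thiolysis release acetyl-CoA, with electrons passed to the respiratory chain through the electron transfer flavoprotein. Many of these genes are known targets of the nuclear receptor PPARα and the coactivator PGC-1α and respond to fasting and to the time of day.

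Several properties of the libraries bear on these genes. Total counts were between 33914931 and 134920825 in the knockout experiment, where replicates 3 and 4 of each genotype were deeper than replicates 1 and 2, and between 30085432 and 40534913 in the AAV experiment. Cardiomyocyte markers summed to between 58940 and 84523 CPM per library, while 10 adipocyte markers summed to between 397 and 646 CPM. Nearly all of that sum came from Fabp4, which endothelial cells also express, at 331 to 566 CPM, Lipe at 26.7 to 48.7 CPM and Cidea at 22.3 to 39.7 CPM, whereas Adipoq, Plin1, Lep, Retn, Cidec and Ucp1 were each between 0 and 0.301 CPM and Cfd reached 1.48 CPM. Atf3 was not lower in the groups meant to lack it. It was at 25.8, 6.89, 6.91 and 6.36 CPM in Atf3+/+FS6KD and at 25.6, 37.6, 22.7 and 14.3 CPM in Atf3-/-FS6KD, where the count includes exons that the deletion leaves and so does not check the knockout. In the AAV experiment Atf3 was at 10.1, 13.3 and 14.1 CPM in the libraries labelled shCtrl and at 21.2, 12.1 and 16.5 CPM in those labelled shAtf3, so no loss was seen. The column names of the AAV table also read the other way round from the sample titles. Groups were taken from the titles and are written as labelled shCtrl and labelled shAtf3, and each direction given for the AAV experiment holds only if those labels are right.

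Levels of different genes were compared as CPM per kilobase (kb) of exon. In Atf3+/+FS6KD hearts the levels of the 34 genes covered more than 3 orders of magnitude. Fabp3, the cytosolic fatty acid-binding protein of the heart, was highest at 4518 ± 407 CPM per kb (SD, n = 4). Hadhb, the β-subunit of the mitochondrial trifunctional protein, and Lpl, lipoprotein lipase, followed at 1439 ± 59.8 and 1309 ± 42.9 CPM per kb, with no overlap between their hearts. Acadm, Acadl, Acadvl and Cd36 came next with means between 609 and 729 CPM per kb, and neighbours in that order overlapped. The carnitine palmitoyltransferase isoforms lay apart. Cpt1b, the muscle isoform, was at 138.7 ± 5.32 CPM per kb and Cpt1a, the liver isoform, at 14.3 ± 3.20 CPM per kb. Slc22a5, the plasma membrane carnitine transporter, was at 10.8 ± 0.35 CPM per kb. The lowest were Ehhadh, a peroxisomal bifunctional enzyme, at 5.08 ± 0.78 CPM per kb and Angptl4, a secreted inhibitor of lipoprotein lipase, at 1.81 ± 1.87 CPM per kb. Fabp3 was the highest and Angptl4 the lowest in each of the 4 groups, although the tables of the experiments were normalized separately, so levels are set side by side across them without a test.

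**Figure D1:**
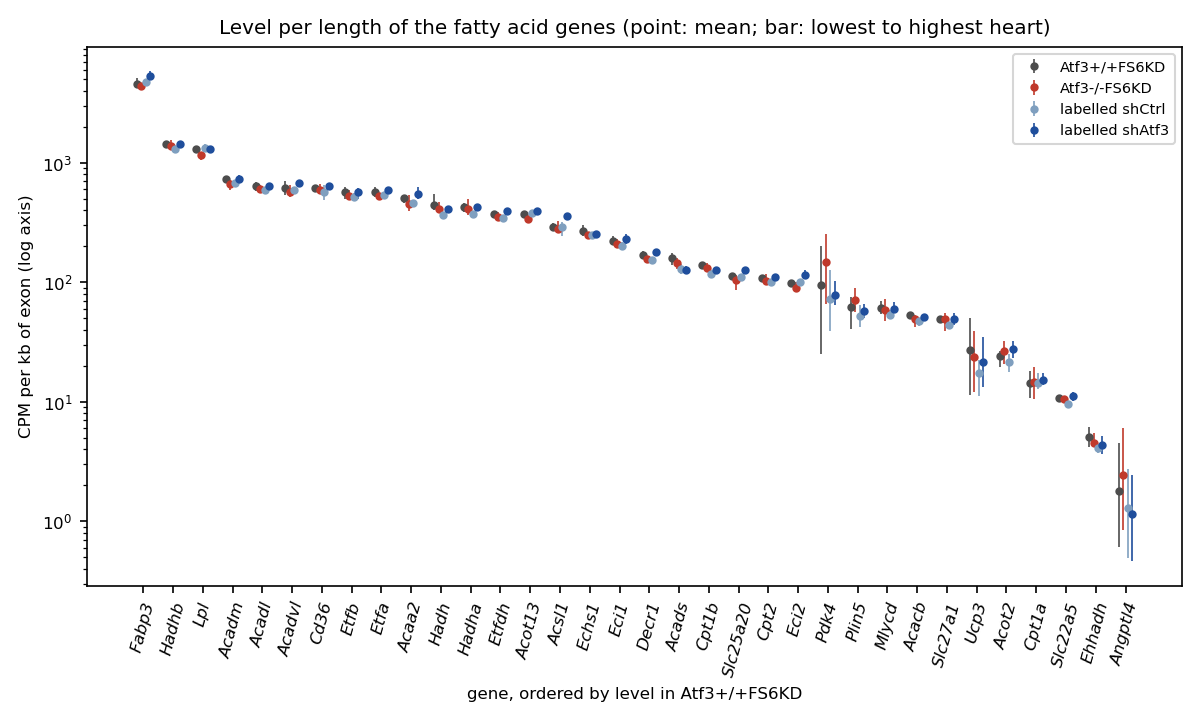
Level per length of the 34 fatty acid genes in the 4 groups, as CPM per kb of exon on a log axis; points are group means and bars run from the lowest to the highest heart (n = 4 per group in the knockout experiment, n = 3 in the AAV experiment). Levels run from Fabp3, at 4518 CPM per kb in Atf3+/+FS6KD, to Angptl4, at 1.81, and the longest bars belong to Pdk4, Ucp3 and Angptl4.

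The promoters of these genes were searched for 4 motifs, because ATF3 belongs to a family that binds CRE and AP-1 elements and PPARα and ERRα bind PPRE and ERRE elements. RefSeq promoter sequences of GRCm38.p6, from 250 bases before to 50 bases after a start, matched 28 of the 34 members (none for Lpl, Angptl4, Cpt1b, Acaa2, Decr1 and Acot13), and both strands were read. The AP-1 letters TGACTCA were found in 2 of 28 (7.143%), against 5.946% of 27025 genes with a promoter. The CRE letters TGACGTCA were in 0 of 28 (2.031% of all genes), the ERRE letters TCAAGGTCA in 0 (0.4662%) and the PPRE, a direct repeat of AGGNCA spaced by 1 base, in 0 (0.4514%). The ERRE and the PPRE can overlap, since AGGTCA is part of the former and matches each arm of the latter. The AP-1 match in Plin5, a lipid droplet coat protein of oxidative tissues, began 11 bases before a start of the promoter table that lies inside the RefSeq gene, which reaches to 56117606, and its 30-base window at chr17:56117541-56117570 (minus strand) is shown with the motif in capitals.
Plin5: ggacggagggcTGACTCAggtgggagcgcc
The other match lay 16 bases after the start of Acadvl, very long-chain acyl-CoA dehydrogenase, read on the opposite strand. These are letter matches in a window and no binding was measured.

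Hadha and Hadhb, the α- and β-subunits of the trifunctional protein, are the only members that neighbour each other head to head. Hadha runs on the minus strand of chromosome 5 from 30119423 to 30154980 and Hadhb on the plus strand from 30155253 to 30184593 (GRCm38.p6), which leaves 272 bases between the RefSeq genes. The stretch that lies outside both genes in RefSeq and in GENCODE M21, chr5:30155163-30155247 on the plus strand, is 85 bases long with a GC content of 69.4%, and is given because both genes start beside it.
Hadha-Hadhb: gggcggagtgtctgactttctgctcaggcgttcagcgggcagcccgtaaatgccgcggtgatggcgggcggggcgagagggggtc
None of the 4 motifs was found in this stretch on either strand.

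The members differed in how much they varied among hearts of the same group. The median within-group SD of the 34 genes was 0.117 on the log2 scale in the knockout experiment and 0.10 in the AAV experiment, against 0.153 and 0.116 for all genes tested and 0.106 and 0.0838 for genes above 5 log2 CPM. The typical member thus varied about as much as other well-expressed genes, while a small number varied far more. The SD was 1.29 and 1.32 for Angptl4, 1.07 and 0.68 for Pdk4, 0.91 and 0.63 for Ucp3, 0.37 and 0.26 for Plin5, 0.35 and 0.22 for Cpt1a, and 0.29 and 0.25 for Acot2.

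Pdk4 encodes the pyruvate dehydrogenase kinase that shuts glucose-derived pyruvate out of oxidation. It was at 705, 88.0, 352 and 177 CPM in Atf3+/+FS6KD and at 875, 413, 521 and 231 CPM in Atf3-/-FS6KD. In the AAV experiment it was at 440.2, 184 and 136 CPM in the libraries labelled shCtrl and at 360.3, 231 and 227 CPM in those labelled shAtf3. Hearts of a single group thus differed by up to 8.01-fold, and the groups overlapped in both experiments. The log2 fold change was 0.62 (SE 0.60, adjusted p = 0.744) in Atf3-/-FS6KD and 0.11 (SE 0.38, adjusted p = 0.940) in the libraries labelled shAtf3. The test was edgeR's quasi-likelihood test with Benjamini-Hochberg adjustment. It gave every adjusted p except in ranges over the alternatives, which include other tests.

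Angptl4 was at 15.05, 2.03, 4.85 and 2.01 CPM in Atf3+/+FS6KD and at 19.9, 5.36, 4.58 and 2.81 CPM in Atf3-/-FS6KD. It was at 9.12, 2.08 and 1.62 CPM in the libraries labelled shCtrl and at 8.09, 1.54 and 1.77 CPM in those labelled shAtf3. In each of the 4 groups replicate 1 was the highest, between 5.26 and 7.49 times the lowest. The replicates of a group have no order, and the labels do not say what hearts of the same number share. In the knockout experiment the numbers also went with depth, since replicates 3 and 4 were the deeper libraries.

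Ucp3, an uncoupling protein of muscle mitochondria, was at 123, 28.0, 84.0 and 29.0 CPM in Atf3+/+FS6KD and at 95.2, 51.0, 58.0 and 29.8 CPM in Atf3-/-FS6KD. Its levels were 54.4, 27.2 and 45.9 CPM in the libraries labelled shCtrl and 85.5, 32.6 and 40.3 CPM in those labelled shAtf3. Replicate 1 was again the highest of each group. The log2 fold change was -0.18 (SE 0.51, adjusted p = 0.927) in the knockout and 0.32 (SE 0.35, adjusted p = 0.771) in the AAV experiment, so differences between groups were smaller than the spread within them.

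Genes of the circadian clock differed between the same hearts. Per2, a clock repressor, was at 4.21, 28.6, 17.3 and 3.65 CPM in Atf3+/+FS6KD, at 2.77, 13.6, 4.25 and 5.28 CPM in Atf3-/-FS6KD, and between 11.2 and 31.4 CPM in the AAV experiment. Arntl, which encodes the clock activator BMAL1, was at 14.5, 2.12, 4.84 and 22.1 CPM in Atf3+/+FS6KD and at 18.7, 6.80, 16.4 and 18.9 CPM in Atf3-/-FS6KD. Among the 8 hearts of the knockout experiment, Per2 was highest and Arntl lowest in Atf3+/+FS6KD replicates 2 and 3 and in Atf3-/-FS6KD replicate 2. Of 15 clock genes 0 were called by edgeR or DESeq2 in either experiment, and 0 (knockout) and 2 (AAV) had an unadjusted p below 0.05 in edgeR. In the knockout 11 of 15 were lower (median log2 fold change -0.31), and in the AAV experiment 11 of 15 were higher (median 0.15). The part of the clock in the levels of Pdk4, Angptl4, Ucp3 and the other members was not tested.

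**Figure D2:**
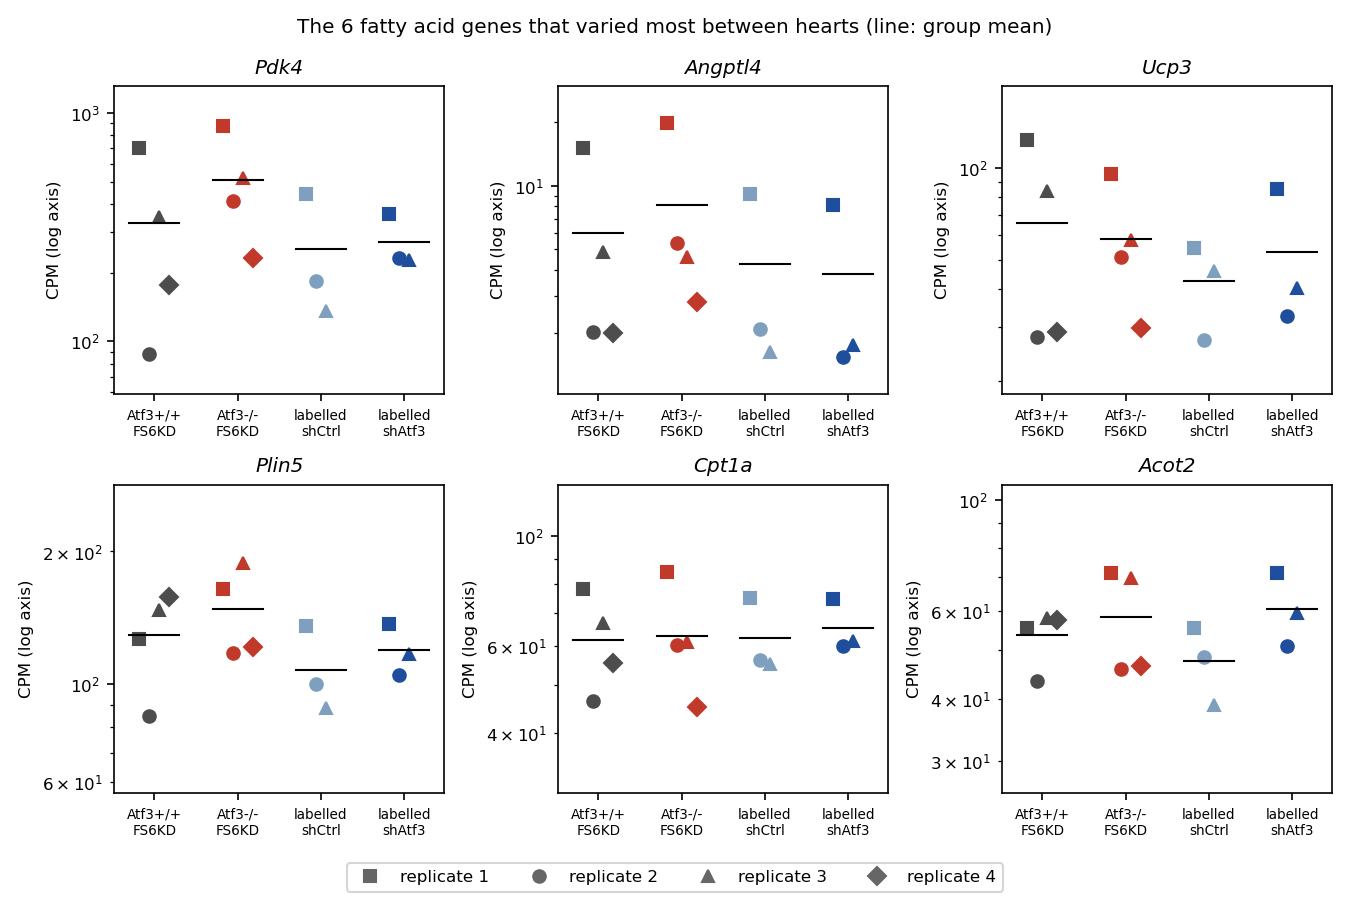
CPM of the 6 members with the widest spread between hearts, on a log axis that differs between panels; each point is a heart, its shape gives the replicate number, and lines are group means (n = 4, 4, 3 and 3). Pdk4, Angptl4 and Ucp3 were highest in replicate 1 of each group, and the groups of an experiment overlap in every panel.

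The knockout comparison asked whether fatty acid genes of the FS6KD heart depend on Atf3. None of the 34 genes passed the threshold, and their fold changes were small: 28 were lower in Atf3-/-FS6KD, 6 were higher, and the median log2 fold change was -0.10. Lpl, with a fold of 0.884, showed the lowest p. Every member of the acyl-CoA dehydrogenases (4 of 4), of the hydration to thiolysis steps (6 of 6), of the auxiliary enzymes for unsaturated fatty acids (3 of 3) and of electron transfer (3 of 3) lay below 0 with TMM scaling, the scaling used throughout. Single genes of these roles were between -0.05 and -0.17. Scaling by library size instead put 13 of all 34 members above 0, with Hadha among them.

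In numbers, 0 of 34 members had an adjusted p below 0.05 in edgeR, against 0% of the 15586 genes tested. At an unadjusted p below 0.05 there were 2 members, both lower, where 4.69% of all genes were lower at that threshold and 10.1% passed it in either direction. DESeq2 called 0 members, where it called 210 of 15586 genes. It had 3 members at an unadjusted p below 0.05, and its share of all genes at that threshold is not given here. The 28 of 34 lower genes compare with 49.8% of all genes tested. The median over all genes was 0.000486 and that over the 1329 genes above 7 log2 CPM, a level nearer to that of these members, was -0.06. Within replicates 1 and 2 the median of the members was -0.07, and within the deeper replicates 3 and 4 it was -0.11. With depth class as a term of the fit, 5 members had an unadjusted p below 0.05 in edgeR, all lower, and 0 were called. Scaling by library size alone moved the median of all genes to 0.06 and that of the members to -0.04, with 21 lower and 13 higher.

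Lpl was at 5289.6, 5491, 5189.6 and 5572 CPM in Atf3+/+FS6KD and at 4908, 4353, 4939.7 and 4850.1 CPM in Atf3-/-FS6KD. The highest knockout heart lay below the lowest Atf3+/+FS6KD heart, and Lpl was the only member whose groups did not overlap, where 2.62% of all genes were lower without overlap. The log2 fold change was -0.18 (SE 0.06, unadjusted p = 0.0108, adjusted p = 0.387). It stayed between -0.22 and -0.12 over the alternatives, with adjusted p between 0.12 and 0.812. Angptl4 was at 0.43 (SE 0.77, adjusted p = 0.876), and the other 3 members of uptake were nearer to 0. Cd36, the main fatty acid translocase of the heart, was at 2155, 2059.6, 2182 and 2220.4 CPM in Atf3+/+FS6KD and at 2364, 1992, 2131 and 1933 CPM in Atf3-/-FS6KD, with log2 fold change -0.03 (SE 0.07, adjusted p = 0.897) that turned to 0.03 when libraries were scaled by size alone. Fabp3 (-0.04) and the transport protein Slc27a1 (0.01) had an adjusted p of 0.895 and 0.986.

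In the carnitine shuttle, Cpt1b was at 394, 385, 419 and 409 CPM in Atf3+/+FS6KD and at 419.8, 366, 401 and 350.3 CPM in Atf3-/-FS6KD. Its groups overlapped, and the log2 fold change was -0.06 (SE 0.07, adjusted p = 0.770). Slc25a20, the carnitine-acylcarnitine translocase of the inner membrane, was the member of this group farthest below 0, at -0.14 (SE 0.09, adjusted p = 0.617), and its lowest heart, at 154 CPM, was Atf3-/-FS6KD replicate 4. Acsl1, the main acyl-CoA synthetase of the heart, differed by -0.04 (SE 0.08, adjusted p = 0.904), with Atf3-/-FS6KD replicate 1 at 1350.4 CPM and the other knockout hearts between 1104 and 1125 CPM.

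Among the dehydrogenases, Acadm, which acts on medium-chain acyl-CoA and is the enzyme lost in MCAD deficiency, was at 1589, 1584, 1401 and 1392 CPM in Atf3+/+FS6KD and at 1468, 1395, 1202 and 1394 CPM in Atf3-/-FS6KD. The log2 fold change was -0.13 (SE 0.08, adjusted p = 0.611). Replicates 1 and 2 of Atf3+/+FS6KD lay above all knockout hearts and replicates 3 and 4 lay among them. Acads and Acadvl, for short and very long chains, differed by -0.13 (SE 0.10) and -0.12 (SE 0.10).

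Hadha was at 1771, 1853, 1550.4 and 1671 CPM in Atf3+/+FS6KD and at 2003, 1569, 1463 and 1573 CPM in Atf3-/-FS6KD. The knockout group held both the highest and the lowest heart, and the log2 fold change was -0.05 (SE 0.10, adjusted p = 0.892). Hadhb, its head-to-head neighbour, had the same value, -0.05 on the log2 scale (SE 0.06, adjusted p = 0.807). Acaa2, the mitochondrial 3-ketoacyl-CoA thiolase, was lower by more, at -0.16 (SE 0.10, adjusted p = 0.614).

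The auxiliary enzymes prepare unsaturated fatty acids for β-oxidation. Decr1, the 2,4-dienoyl-CoA reductase, was at 504, 540.3, 473 and 493 CPM in Atf3+/+FS6KD and at 487, 463, 447 and 443 CPM in Atf3-/-FS6KD, so that 3 of 4 knockout hearts lay below all Atf3+/+FS6KD hearts. The log2 fold change was -0.13 (SE 0.06, adjusted p = 0.511). Eci2, an enoyl-CoA isomerase, was at 175, 184, 164 and 168 CPM against 176, 155, 149.6 and 147 CPM, with log2 fold change -0.14 (SE 0.07, adjusted p = 0.538). Acot13, a thioesterase that releases free fatty acid from acyl-CoA, was at 250.4, 283, 264 and 271 CPM against 234, 246, 253 and 237 CPM. Its groups overlapped only through Atf3+/+FS6KD replicate 1 and Atf3-/-FS6KD replicate 3, and the log2 fold change was -0.14 (SE 0.06, unadjusted p = 0.035, adjusted p = 0.458). Acacb, the acetyl-CoA carboxylase whose malonyl-CoA restrains CPT1, was at 454, 469, 463 and 496 CPM against 429, 372, 464 and 460.3 CPM, with log2 fold change -0.13 (SE 0.08, adjusted p = 0.611). Mlycd, which degrades malonyl-CoA, had a log2 fold change of -0.05 (adjusted p = 0.923).

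Markers of other cell types moved beside these genes in the knockout experiment. All 8 fibroblast markers were higher in Atf3-/-FS6KD (median log2 fold change 0.39, 0 called by edgeR, 6 at an unadjusted p below 0.05, 3 called by DESeq2), and their summed level ran from 2015 to 2748 CPM there against 1697 to 2039 CPM with intact Atf3. All 8 macrophage markers were higher (median 0.29), 7 of 8 endothelial markers were higher (median 0.11) and 9 of 10 cardiomyocyte markers were lower (median -0.15). In these 3 lists edgeR called 0 genes and DESeq2 called Actc1 (higher) and Tnnt2 (lower), with 2, 2 and 4 genes at an unadjusted p below 0.05 in edgeR. Their summed levels overlapped between the genotypes, at 313 to 384 against 347 to 505 CPM for macrophages, 821 to 1029 against 896 to 1040.2 CPM for endothelium and 70699 to 84523 against 58940 to 78019 CPM for cardiomyocytes. The part of cell composition in the lower fatty acid genes was not tested, and in bulk tissue fewer cells of a type and less RNA per cell cannot be told apart.

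**Figure D3:**
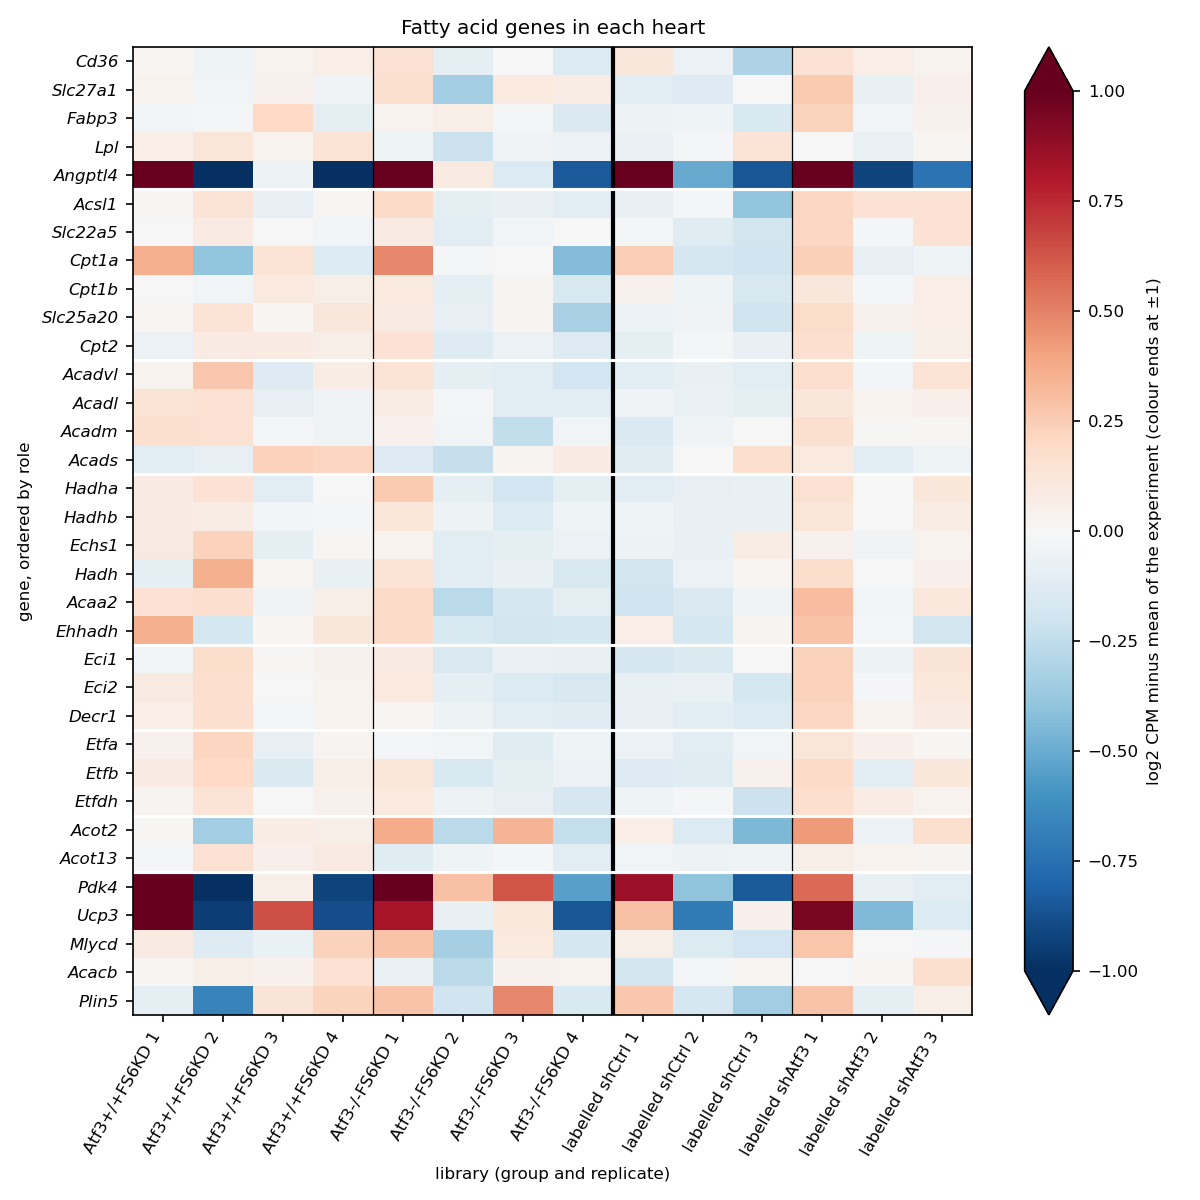
Log2 CPM of each member in each heart minus the mean of that gene over its experiment (8 hearts on the left of the thick line, 6 on the right); rows follow the order of the pathway and white lines part the roles. Angptl4, Pdk4 and Ucp3 reach the ends of the colour scale, whereas the core enzymes differ by shades. Of the 34 members 3, 12 and 3 lie above the mean in Atf3-/-FS6KD replicates 2, 3 and 4 and 29 in replicate 1, against 32, 13 and 27 in labelled shAtf3 replicates 1, 2 and 3.

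The AAV comparison set hearts given the hairpin against Atf3 beside those given the control hairpin, by their labels, and no knockdown was seen in the Atf3 counts. Here 31 of 34 members lay higher in hearts labelled shAtf3, the median log2 fold change was 0.15, and 14 did not overlap between the groups, all of them higher. None passed the threshold. The 14 included the acyl-CoA synthetase Acsl1, the carnitine translocase Slc25a20, the dehydrogenases Acadvl, Acadl and Acadm, both trifunctional protein subunits, the thiolase Acaa2, the auxiliary enzymes Decr1 and Eci2, Etfa and Etfdh of electron transfer, Fabp3 and Acot13. The regulators Pdk4, Ucp3, Mlycd, Acacb and Plin5 all overlapped.

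In edgeR 0 of 34 members were called, where 82 of 15219 genes (0.539%) were called and 13 of them (0.0854%) were higher. That background rested on single libraries too, since leaving out 1 of the 6 gave between 1 (without labelled shAtf3 replicate 2) and 285 calls (without labelled shCtrl replicate 3). At an unadjusted p below 0.05 there were 15 members, all higher, against 5.07% of all genes that were higher at that threshold. The 14 members higher without overlap compare with 8.46% of all genes, and the 31 higher members with 49.1%. DESeq2 called 1 member, Acsl1, where it called 307 of 15219 genes. The median over all genes was -0.00296, and that over the 1329 genes above 7 log2 CPM was 0.05. The count of 15 depended on single libraries. Just 3 members passed it when labelled shAtf3 replicate 1 was left out, the heart with the highest mean log2 CPM over the members (8.62, against 8.23 to 8.41 in the other 5), and 18 were counted without labelled shAtf3 replicate 2. Scaling by library size alone gave 6 members at that threshold, moved the median of all genes to -0.04 and left 30 members higher (median 0.11).

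Decr1 had the lowest p. It was at 459.8, 453 and 444 CPM in the libraries labelled shCtrl and at 563, 500.3 and 516 CPM in those labelled shAtf3. All of the latter lay above the former, and the log2 fold change was 0.22 (SE 0.06, unadjusted p = 0.00577, adjusted p = 0.195). Eci2 was at 177, 179 and 166 CPM against 220.3, 185 and 202 CPM, and differed by 0.21 on the log2 scale (SE 0.07, adjusted p = 0.276). Eci1, the other mitochondrial isomerase, had log2 fold change 0.21 (SE 0.08, adjusted p = 0.347), with overlap through the library labelled shCtrl replicate 3.

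Acsl1 was at 1272, 1328 and 1022 CPM in the libraries labelled shCtrl and at 1548, 1485 and 1482 CPM in those labelled shAtf3. The hearts labelled shAtf3 lay close together and above those labelled shCtrl, while labelled shCtrl replicate 3 stood apart as the lowest. The log2 fold change was 0.32 (SE 0.09, unadjusted p = 0.00686, adjusted p = 0.206), a fold of 1.25, and over the alternatives it was between 0.21 and 0.39 with an adjusted p between 0.0351 and 0.462. Slc25a20 was higher by 0.19 (SE 0.07, adjusted p = 0.288) and the carnitine transporter Slc22a5 by 0.22 (SE 0.08, adjusted p = 0.305). Cpt1b, at 366, 345 and 318 CPM against 384, 353 and 371 CPM, overlapped, and its log2 fold change was 0.11 (SE 0.07, adjusted p = 0.554).

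Acadvl was at 1283, 1312 and 1285 CPM in the libraries labelled shCtrl and at 1549, 1356 and 1514 CPM in those labelled shAtf3, with log2 fold change 0.19 (SE 0.06, adjusted p = 0.258). Hadha was at 1487, 1516 and 1526 CPM against 1787, 1611 and 1736 CPM, with log2 fold change 0.18 (SE 0.06, adjusted p = 0.242). The libraries labelled shCtrl agreed closely for both genes, within 1.02 and 1.03-fold. Hadhb lay without overlap too, at 0.13 (SE 0.05, adjusted p = 0.356).

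Acaa2 was at 663, 689 and 742 CPM against 946, 748 and 820.3 CPM, and the lowest library labelled shAtf3 stood just above the highest labelled shCtrl. Its log2 fold change was 0.26 (SE 0.09, adjusted p = 0.259). Echs1, the short-chain enoyl-CoA hydratase, and Acads differed by 0.03 (SE 0.06) and -0.04 (SE 0.09) and were the enzymes of the spiral nearest to 0 in this experiment. Acot2, a mitochondrial thioesterase, had the highest log2 fold change of the members at 0.35 (SE 0.15, adjusted p = 0.373), with overlap.

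At the vessel wall and the cell membrane the picture was mixed. Lpl was at 5162, 5338 and 5935 CPM in the libraries labelled shCtrl and at 5405, 5165 and 5466 CPM in those labelled shAtf3. The groups overlapped fully, and the log2 fold change was -0.04 (SE 0.06, adjusted p = 0.866). Cd36 was at 2302, 2040 and 1716 CPM against 2350.3, 2228 and 2176 CPM, with overlap through the library labelled shCtrl replicate 1 and log2 fold change 0.16 (SE 0.10, adjusted p = 0.542). Fabp3 did not overlap and had log2 fold change 0.16 (SE 0.07, adjusted p = 0.378).

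Marker genes moved beside the members in this experiment as well. All 8 fibroblast markers were lower in the libraries labelled shAtf3 (median log2 fold change -0.67), and 4 of them fell past the threshold: Postn (-1.14), Col3a1 (-1.05), Col1a1 (-0.84) and Col1a2 (-0.82), with adjusted p between 0.0291 and 0.0325. With 1 library left out these 4 genes were called in 2 of 6 fits, those without labelled shCtrl replicate 1 or 3, and stayed lower in all 6, with an adjusted p of up to 0.176. With a replicate block Postn was still called (adjusted p = 0.0478). Col1a1, Col1a2 and Col3a1 were not (adjusted p = 0.0611, 0.0611 and 0.0799). The summed level of the 8 fibroblast markers was 2341 to 3206 CPM in the libraries labelled shCtrl and 1743 to 1827 CPM in those labelled shAtf3. All 8 macrophage markers were lower (median -0.19), 5 of 8 endothelial markers were higher (median 0.02) and all 10 cardiomyocyte markers were higher (median 0.10). Neither edgeR nor DESeq2 called a gene of these 3 lists, and 4, 0 and 1 of them had an unadjusted p below 0.05. Summed cardiomyocyte markers were at 65113 to 73998 CPM in the libraries labelled shCtrl and at 71018 to 76476 CPM in those labelled shAtf3. The 3 atrial markers tested (of 6) were lower (median -0.33), with Nppa at -1.06 (unadjusted p = 0.0121, adjusted p = 0.246), and the 4 smooth muscle markers were lower too (median -0.21). In each of these lists edgeR and DESeq2 called 0 genes and 1 gene had an unadjusted p below 0.05. Summed atrial markers were at 824, 813 and 289 CPM in the libraries labelled shCtrl and at 306, 373 and 291 CPM in those labelled shAtf3, so labelled shCtrl replicate 3 was the lowest of the 6. The part of all these markers in the higher fatty acid genes was not tested.

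**Figure D4:**
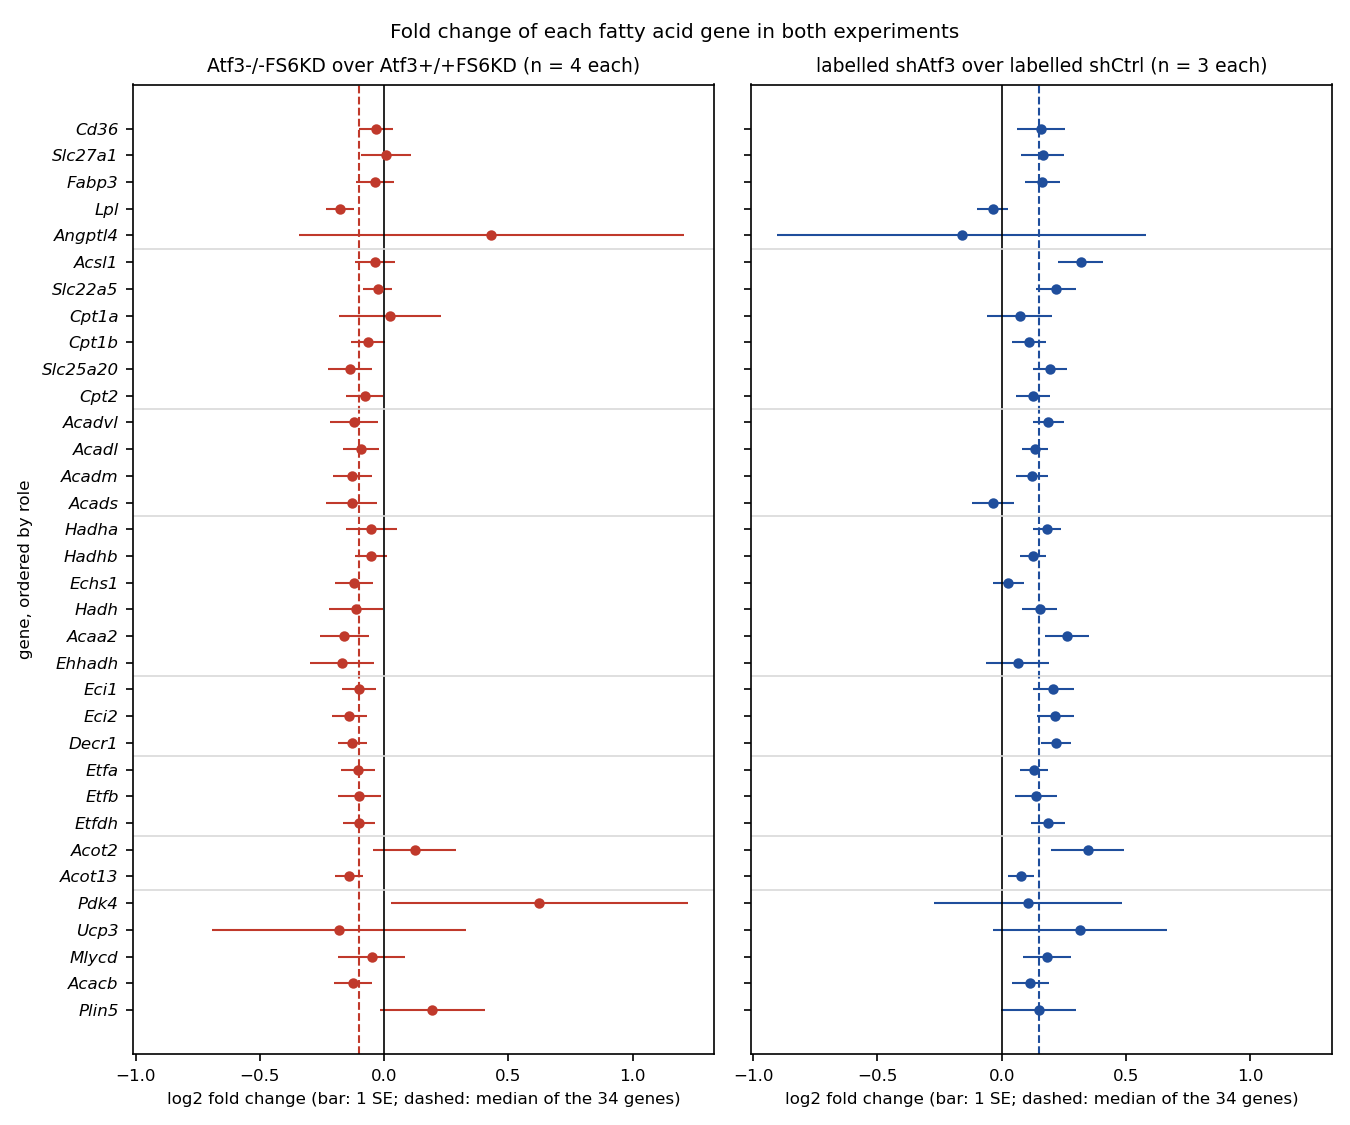
Log2 fold change of each member in the knockout experiment (left) and in the AAV experiment (right), with bars of 1 SE and a dashed line at the median of the 34 genes. The medians are -0.10 and 0.15, and the widest bars belong to Angptl4, Pdk4 and Ucp3; 0 members passed an adjusted p below 0.05 in either experiment.

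Acadl, long-chain acyl-CoA dehydrogenase, needed separate treatment because the tables list a copy of the gene in a row of its own. The copy held 42.6% to 43.4% of the summed count in 9 of 14 libraries, 61.1% in Atf3+/+FS6KD replicate 2 and in the libraries labelled shAtf3 replicates 2 and 3, 23.3% in Atf3+/+FS6KD replicate 3 and 24.2% in Atf3-/-FS6KD replicate 2. The share thus took 3 separate levels and differed within each group of the knockout experiment. In the AAV experiment it was uneven between the labels. All libraries labelled shCtrl were between 42.6% and 43.3%, while labelled shAtf3 replicates 2 and 3 were at 61.1%, so single rows compare unlike shares there. The gene row held 14684 and 14018 counts in the libraries labelled shAtf3 replicates 2 and 3, where it held 24290.5 in replicate 1. Summed, the level was 1305, 1320.4, 1122 and 1159.5 CPM in Atf3+/+FS6KD, and Atf3-/-FS6KD hearts had 1248, 1167, 1093 and 1093 CPM. It was 1152, 1124 and 1104 CPM in the libraries labelled shCtrl and 1273, 1209 and 1225 CPM in those labelled shAtf3.

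The sum varied far less than its parts. Its log2 fold change was -0.09 (SE 0.07, adjusted p = 0.689) in the knockout and 0.13 (SE 0.05, adjusted p = 0.335) in the AAV experiment, where the groups did not overlap. Taken alone, the gene row gave 0.03 (SE 0.16, adjusted p = 0.963) and -0.21 (SE 0.15, adjusted p = 0.590), and the copy row gave -0.27 (SE 0.31, adjusted p = 0.787) and 0.49 (SE 0.11, adjusted p = 0.103). In both experiments the direction of Acadl therefore depended on whether the rows were summed. Acadvl and Fabp3 each had 1 copy row that held 50% of their counts in every library, and Angptl4 had 3 copy rows with 71.6% to 74.2%, so their fold changes differed little between rows and sum.

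**Figure D5:**
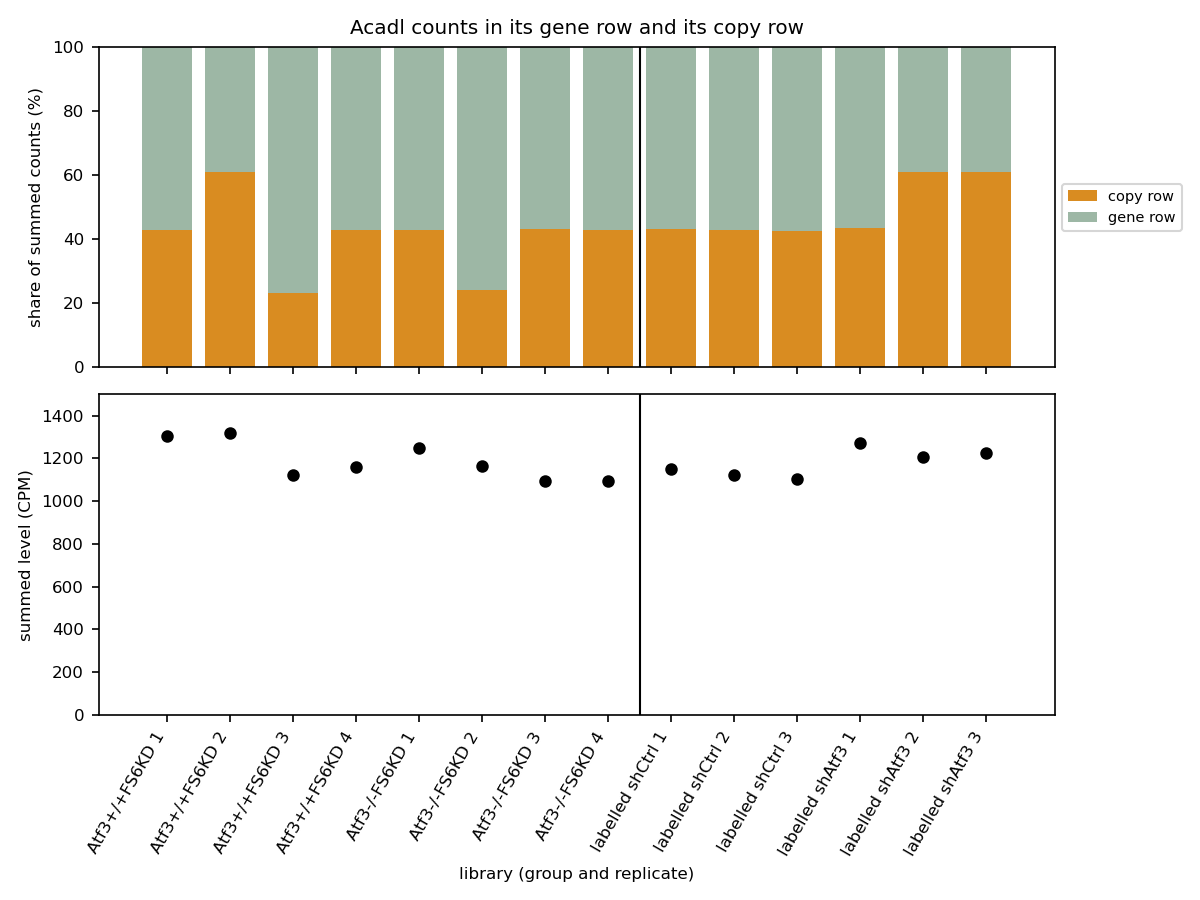
Share of the Acadl counts in the copy row and the gene row (top, % of the summed counts) and the summed level (bottom, CPM) in each of the 14 hearts. The share takes 3 levels, near 24%, 43% and 61%, while the summed level stays between 1093 and 1320.4 CPM.

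The experiments were then set side by side, which was possible because they share no library. Of the 34 members 26 (76.5%) were lower in Atf3-/-FS6KD and higher in the libraries labelled shAtf3, against 31.4% of the 15103 genes tested in both. With the AAV labels exchanged, these 26 would be lower in both experiments. A further 1 (Angptl4) was higher and then lower, 5 were higher in both and 2 (Lpl and Acads) were lower in both. The difference of the log2 fold changes, knockout minus AAV, was tested in 1 fit of all 14 libraries. It passed the threshold for 0 members, where 26 of 15702 genes (0.166%) were called. The count of all genes called ran from 0 (without labelled shAtf3 replicate 2) to 168 (without Atf3+/+FS6KD replicate 3) with a library left out, and was 208 with scaling by library size and 675 with DESeq2. At an unadjusted p below 0.05 there were 14 members, all with a negative difference, against 7.57% of all genes, and 31 of 34 differences were negative, against 49.9% of all genes. With libraries scaled by size alone, 3 members were at that threshold and the median difference over all genes was 0.105. The size of the contrast depends on the AAV labels as well as its sign. With these labels exchanged, an alternative added after seeing the data, 2 members had an unadjusted p below 0.05 (Lpl negative, Acsl1 positive), the median difference of the members was 0.08 instead of -0.24, and edgeR called 0 of the 15702 genes, with 4.1% at an unadjusted p below 0.05.

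With the labels as given, Decr1 had the lowest p of this test, with a difference of -0.35 (SE 0.08, unadjusted p = 0.000809, adjusted p = 0.0874), which was 0.09 (SE 0.08, unadjusted p = 0.277) with the AAV labels exchanged. Eci2 followed at -0.36 (SE 0.10, adjusted p = 0.114), then Acot13 at -0.22 (SE 0.07, adjusted p = 0.144) and Etfdh, the dehydrogenase that hands electrons from the flavoprotein to ubiquinone, at -0.29 (SE 0.09, adjusted p = 0.146). With DESeq2 the differences of Acot13, Decr1 and Eci2 passed the threshold, and without Atf3+/+FS6KD replicate 3 that of Decr1 did in edgeR. Pdk4, Angptl4 and Plin5 had positive differences with an SE of 0.85, 1.27 and 0.31 and an adjusted p of 0.811 or more. Among the markers, all 8 fibroblast markers had a positive difference (median 1.09, 3 called by edgeR and 8 by DESeq2), as did all 8 macrophage markers (median 0.48, 0 called by edgeR or DESeq2, 5 at an unadjusted p below 0.05), and 9 of 10 cardiomyocyte markers had a negative difference, the sign of most members (median -0.26, 0 called by edgeR, 3 at an unadjusted p below 0.05, and Actn2 and Tnnt2 called by DESeq2). The part of these markers in the difference of the fatty acid genes was not tested.

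Other genes of lipid metabolism were taken from 7 further lists. In the knockout 0 of 89 tested were called by edgeR or DESeq2. An unadjusted p below 0.05 was reached by 8 in either tool, where 10.1% of all genes passed that threshold in edgeR. Of 17 other mitochondrial acyl-CoA enzymes 14 were lower (median -0.08), and of 18 genes of peroxisomal β-oxidation 15 were lower (median -0.10). Other uptake and acyl-CoA synthetase genes were mostly higher, 9 of 12 tested (median 0.04). Of 13 nuclear receptors and coactivators 9 were lower (median -0.07). Among them Ppara, the receptor that drives many of the members, was at -0.26 (SE 0.11, unadjusted p = 0.0416, adjusted p = 0.475) and the corepressor Ncor1 at -0.20 (SE 0.06, adjusted p = 0.388). Ppargc1a, the gene of PGC-1α, was at -0.21 (SE 0.10, adjusted p = 0.526). Of 14 genes of triglyceride stores 8 were lower (median -0.03), among them the acyltransferase Dgat2 at -0.27 (SE 0.09, adjusted p = 0.404). Of 5 pyruvate dehydrogenase kinases and phosphatases 3 were lower (median -0.07), and of 10 genes of fatty acid synthesis 6 were higher (median 0.06).

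In the AAV experiment Scd1, the stearoyl-CoA desaturase of fatty acid synthesis, was the only gene of these lists past the threshold in edgeR, of 90 tested and 17 at an unadjusted p below 0.05, where 12.8% of all genes passed that threshold in either direction. It was at 28.7, 27.9 and 25.0 CPM in the libraries labelled shCtrl and at 19.1, 20.3 and 19.6 CPM in those labelled shAtf3, and it fell by 0.47 on the log2 scale (SE 0.08, adjusted p = 0.0399). With 1 library left out it was called in 1 of 6 fits, that without labelled shCtrl replicate 3, and was lower in all 6. With a replicate block it was not called (adjusted p = 0.0845). Of the 10 genes of fatty acid synthesis 7 were lower (median -0.18), the opposite sign from the oxidation genes of the same hearts. Higher genes were in the majority among mitochondrial acyl-CoA enzymes (15 of 17, median 0.13), peroxisomal β-oxidation (13 of 18, median 0.06), triglyceride stores (12 of 14, median 0.11), nuclear receptors and coactivators (10 of 13, median 0.11), uptake and synthetase genes (8 of 13, median 0.07) and pyruvate dehydrogenase regulators (3 of 5, median 0.07).

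Slc25a42, which carries coenzyme A into mitochondria, came close to the threshold. It was at 83.1, 87.3 and 82.2 CPM in the libraries labelled shCtrl and at 121, 103 and 106 CPM in those labelled shAtf3, with log2 fold change 0.39 (SE 0.07, adjusted p = 0.0637). Ppargc1a, which encodes PGC-1α, was at 109, 108 and 97.6 CPM against 129, 128 and 124 CPM, with log2 fold change 0.28 (SE 0.06, adjusted p = 0.121). Gpam, the first acyltransferase of triglyceride synthesis, had log2 fold change 0.32 (SE 0.07, adjusted p = 0.124). The groups did not overlap for any of these 3 genes, and DESeq2 called all 3 beside Scd1. In the knockout Ppargc1a and Gpam were lower instead, at -0.21 and -0.19, with overlap between the genotypes. With the AAV labels as given, DESeq2 called the difference between the experiments for both genes and edgeR for neither. DESeq2 called 675 of 15702 genes in that test.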

How the data were processed

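Stranded mRNA libraries had been made from 14 female mouse hearts. The authors' deposited tables hold an estimated count per gene and library, neither normalized nor pooled. Reads were counted with featureCounts 2.0.0 on GRCm38.p6 per the submitters' processing notes, and the aligner is not given in the sources used here. Between 19.3% and 24.4% of a library's values were not whole (no tolerance), whereas the design had assumed whole counts. Here 6 copy rows of 4 members (Acadl, Acadvl, Fabp3, Angptl4) were summed with the gene, and values were rounded. Copies, overlapping genes and antisense genes share reads, so their values are uncertain.

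Libraries were grouped by GEO titles. Whether replicates differ in litter is not given in the sources used here, and no pair agreed within sampling noise (chi-square per gene 7.31 or more). Genes above 1 CPM in at least 1 library were tested in R 4.3.3 with edgeR 4.0.16 by TMM scaling and the two-sided quasi-likelihood test. A gene was called at a Benjamini-Hochberg adjusted p below 0.05. Each fit held the groups of an experiment, as the study compares them, without covariates. The difference between experiments was an interaction in a fit of all libraries. CPM are TMM-normalized within a table, and log2 CPM used a prior count of 2. Exon lengths and positions came from GENCODE M21 and RefSeq. Alternatives were DESeq2 1.42.0, limma 3.58.1, other scalings and filters, a replicate block, a depth class term in the knockout and libraries left out. The scripts were tested on simulated data. Values per library are given for Cd36, Lpl, Cpt1b, Acadl, Hadha, Pdk4, Ucp3 and the 6 members with the smallest p in each experiment. Angptl4 and other further genes were named after their values were seen. Columns of samples left out numbered 0. Members and lists were chosen with earlier results of these data known.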

Additional observations from a re-analysis of the deposited data

Results flagged for a closer look

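Each of the 34 genes was examined in both groups of 4 hearts of the knockout experiment (68 groups) for a heart whose gap to its nearest neighbour took up most of the range of the group by Dixon's ratio, and chance flags about 1 in 20 such groups. There were 6. Replicate 1 of Atf3-/-FS6KD was high for Angptl4 (19.9 CPM, others 2.81 to 5.36), Acsl1 (1350 CPM, others 1100 to 1130, rounded to 3 digits) and Ehhadh (16.2 CPM, others 12.5 to 12.8). In Atf3+/+FS6KD, Cpt2 was low in replicate 1 (240 CPM, others 260 to 264) and Acot2 was low in replicate 2 (43.3 CPM, others 55.5 to 58.0). Lpl was low in Atf3-/-FS6KD replicate 2 (4350 CPM, others 4850 to 4940). The range given above for the log2 fold change of Lpl already includes the fit without that heart.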

How the results depend on the processing

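No member was called in the knockout under any of the 20 alternatives, and the median log2 fold change of the members stayed between -0.15 and -0.04 there and between 0.09 and 0.22 in the 15 alternatives of the AAV experiment. In the AAV experiment 1 member (Acsl1) was called with no filter and 1 with DESeq2, where 303 of 26991 and 307 of 15219 genes were called. For the difference between the experiments 3 were called with DESeq2 and 1 without Atf3+/+FS6KD replicate 3, where 675 of 15702 and 168 of 15684 genes were called. The number of members at an unadjusted p below 0.05 ran from 0 to 6 in the knockout, from 3 to 18 in the AAV experiment and from 3 to 20 for the difference, where it was 2 with the AAV labels exchanged. Library size alone lowered it from 15 to 6 in the AAV experiment and from 14 to 3 for the difference. It was 6 without Atf3-/-FS6KD replicate 1 and 6 without replicate 1 of both groups, an alternative chosen after seeing the data, which left 7 in the AAV experiment.

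Among named genes in the knockout, library size alone turned Cd36 to 0.028 and Hadha to 0.009768, unsummed rows turned Acadl to 0.032, and replicates 1 and 2 alone turned Cd36 to 0.051 and Cpt1b to 0.016. With single hearts left out, Ucp3 ran from -0.52 to 0.30 (positive without Atf3+/+FS6KD replicate 1 or, at 0.04, Atf3-/-FS6KD replicate 4), Cd36 from -0.09356 to 0.005394 (Atf3-/-FS6KD replicate 4) and Hadha from -0.16 to 0.002131 (Atf3-/-FS6KD replicate 3). In the AAV experiment unsummed rows turned Acadl to -0.21. With single hearts left out there, Pdk4 ran from -0.20 to 0.77 (negative without labelled shCtrl replicate 2, labelled shCtrl replicate 3 or labelled shAtf3 replicate 1, at -0.08, -0.20 and -0.15), Lpl from -0.07655 to 0.026 (positive without labelled shCtrl replicate 3) and Ucp3 from -0.22 (without labelled shAtf3 replicate 1) to 0.58. Ucp3 was -0.001735 without replicate 1 of both groups. The cause was not tested.

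Whether replicate numbers pair the hearts was not settled. Deviations of same-numbered hearts correlated at 0.177, 0.0711, 0.00684 and 0.147 in the knockout, where other pairs ran from -0.3 to 0.235. In the AAV experiment they correlated at -0.0253, 0.171 and 0.0642, where other pairs ran from -0.221 to 0.146. Pdk4, Angptl4 and Ucp3 were nonetheless highest in replicate 1 of each group. With a replicate block 0 members were called in any comparison. An unadjusted p below 0.05 was reached by 5 in the knockout (4 lower, 1 higher), 15 in the AAV experiment (all higher) and 16 for the difference (all negative). The share of all genes at that threshold is not given for these fits. Over all genes the block left 20 calls in the AAV experiment instead of 82. DESeq2 called 210 genes in the knockout and 307 in the AAV experiment. The libraries hold at least 30085432 counts. Angptl4, the lowest member, had between 48 and 702 summed counts per library, and the part of counting noise in its spread was not tested.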
